A study of Homo sapiens with 12 samples.

Results

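Transcripts of 10 amino acid transporter genes were followed in MDA-MB-231, an established human line of triple-negative breast cancer, under lower glucose and under cariporide, an inhibitor of the sodium-proton exchanger NHE1. The genes were chosen by symbol from the 40929 gene symbols in the count tables, and all 10 were among the 15104 genes tested. They were SLC3A2, SLC7A5, SLC7A6, SLC7A11, SLC7A1, SLC1A5, SLC1A4, SLC38A1, SLC38A2 and SLC6A9. The cells, labelled wild type and epithelial, were grown in RPMI with 10% fetal bovine serum, and RNA was taken after 48 h of treatment. The 4 groups of 3 libraries were LGCAR (5 mM glucose with 25 µM cariporide), LG (5 mM glucose), CAR (10 mM glucose with 25 µM cariporide) and NG (10 mM glucose without drug). The labels do not say whether each library had a culture of its own, so p-values measure the spread between these libraries, which may be technical.

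Cells import amino acids through membrane carriers of several families. SLC3A2 encodes the heavy chain 4F2hc (CD98), a single-pass glycoprotein that carries no substrate itself and escorts light chains of the SLC7 family to the cell surface. Light chains such as LAT1, the product of SLC7A5, work as exchangers, so that glutamine taken up by SLC1A5 and the SLC38 carriers can leave again in exchange for leucine. Many genes of this group are known targets of ATF4, a transcription factor that is translated when amino acids are short or the endoplasmic reticulum is under stress and that binds, with C/EBP partners, to a composite DNA element.

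The library totals ran from 18069004 to 24837409 counts. Ribosomal RNA held 9.32% to 11.5% of the counts in LGCAR, 7.91% to 9.06% in LG, 7.10% to 8.53% in CAR and 7.83% to 11.2% in NG. Levels are given in CPM, counts scaled to library size with TMM factors. The mesenchymal marker VIM was at 1611 to 1864 CPM, the estrogen receptor gene ESR1 reached at most 0.188 CPM and the progesterone receptor gene PGR was at 0 in all 12 libraries. Of 16 markers of blood, vessel, stromal, liver and islet cells 5 passed the filter on low counts, and CD3E, MS4A1, HBB and INS were at 0 in all libraries. Their summed level was 84.3 to 87.8 CPM in LGCAR, 91.5 to 94.3 CPM in LG, 76.7 to 83.2 CPM in CAR and 81.6 to 83.2 CPM in NG, most of it from CD68 (53.9 to 73.2 CPM), and its part in the results was not tested. The value of CD68 is uncertain, since 81.7% of its exon length is overlapped on the same strand. The summed level of 10 luminal breast markers, ESR1 and PGR among them, was 1108 to 1203 CPM in LGCAR, 1182 to 1249 CPM in LG, 1162 to 1314 CPM in CAR and 1274 to 1341 CPM in NG. Most of it came from the keratin genes KRT8 (427 to 506 CPM), KRT18 (331 to 434 CPM) and KRT19 (265 to 324 CPM), and ERBB2 was at 55.3 to 67.0 CPM. In LGCAR against NG, where 4.63% of all genes rose and 4.12% fell, 1 of 5 tested markers of other cell types rose (PDGFRB). Of 7 tested luminal markers 1 rose (CDH1) and 2 fell (KRT18 and KRT19). None of 8 markers of basal or mesenchymal breast cancer lines was called (edgeR, adjusted p under 0.05). Whether these counts differ from the shares over all genes was not tested.

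The promoter windows of 4 of the genes are shown because SLC3A2, SLC1A5 and SLC6A9 fell in lower glucose, whereas SLC7A1 was not called in any comparison. Each window holds 250 bases before and 50 bases after an annotated transcript start, taken from RefSeq on GRCh38.p14 and written 5′ to 3′ on the gene's strand. Capitals mark matches to TGATGNAA, the core of the composite element of ATF4 and C/EBP, searched on both strands.
SLC3A2 (chr11:62881449-62881748, + strand): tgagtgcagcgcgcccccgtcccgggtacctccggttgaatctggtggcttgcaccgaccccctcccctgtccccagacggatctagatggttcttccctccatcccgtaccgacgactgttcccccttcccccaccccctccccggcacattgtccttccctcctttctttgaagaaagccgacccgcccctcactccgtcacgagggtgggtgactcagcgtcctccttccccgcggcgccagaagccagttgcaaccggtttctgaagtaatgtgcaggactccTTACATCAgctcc
SLC1A5 (chr19:46784765-46785064, - strand): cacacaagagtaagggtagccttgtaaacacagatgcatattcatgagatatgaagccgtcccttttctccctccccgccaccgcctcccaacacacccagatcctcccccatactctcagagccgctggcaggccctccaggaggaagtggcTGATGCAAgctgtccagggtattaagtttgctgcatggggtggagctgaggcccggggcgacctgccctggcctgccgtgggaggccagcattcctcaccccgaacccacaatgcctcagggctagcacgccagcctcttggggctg
SLC6A9 (chr1:44031413-44031712, - strand): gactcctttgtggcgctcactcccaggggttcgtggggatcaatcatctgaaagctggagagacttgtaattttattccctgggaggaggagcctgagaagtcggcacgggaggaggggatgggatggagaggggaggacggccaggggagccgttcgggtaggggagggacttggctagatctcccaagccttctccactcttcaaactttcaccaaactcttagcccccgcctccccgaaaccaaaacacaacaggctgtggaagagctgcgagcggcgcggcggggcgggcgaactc
SLC7A1 (chr13:29595639-29595938, - strand): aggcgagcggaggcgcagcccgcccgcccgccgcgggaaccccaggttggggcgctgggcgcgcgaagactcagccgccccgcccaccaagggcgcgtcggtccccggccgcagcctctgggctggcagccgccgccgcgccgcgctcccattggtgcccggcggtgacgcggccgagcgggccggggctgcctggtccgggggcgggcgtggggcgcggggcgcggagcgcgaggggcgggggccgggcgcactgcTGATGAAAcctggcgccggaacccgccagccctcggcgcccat
The match in SLC3A2 began 37 bases after the start, that in SLC1A5 at position -97 and that in SLC7A1 7 bases after the start, with the start counted as 0. Windows were found for 9 of the 10 genes, SLC7A11 having none in the table, and 5 of their 15 windows held a match, 1 each in SLC3A2, SLC7A1, SLC1A4, SLC1A5 and SLC38A1. One was held by 3.62% of all 35116 RefSeq windows of this length. SLC3A2 and SLC1A5 have 3 windows each, of which only the 1 shown matched, and the window of SLC6A9 held none. The windows of SLC7A5, SLC7A6 and SLC38A2, which were not called either and are not shown, held none. The windows shown thus hold a match more often than the 15 do. A match describes letters only, and both genes that fell and genes that were not called held one.

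Per length, the members covered a wide range of levels. The length is that of all annotated exons of a gene merged, 5178 bases for SLC3A2 and 4745 bases for SLC7A5. It can exceed the length of the transcripts present, which was not measured, so the order of genes given here depends on it. The mean level in NG, in CPM per kilobase of annotated exon, was highest for the glutamine exchanger gene SLC1A5 at 91.3 ± 1.28 and next for the leucine exchanger gene SLC7A5 at 82.7 ± 6.34 (SD, n = 3 each). SLC38A2 and SLC38A1, which encode sodium-coupled importers of glutamine and other neutral amino acids, were at 65.5 ± 3.60 and 42.0331 ± 2.498 CPM per kilobase in NG, with SLC3A2 between them at 61.6 ± 2.09. SLC7A1, the arginine and lysine carrier CAT-1, was at 33.5 ± 2.65 and SLC7A11, the cystine-glutamate exchanger xCT, at 20.4 ± 2.12 CPM per kilobase in NG. The lowest were SLC7A6, an exchanger of cationic for neutral amino acids, at 9.91 ± 0.366, the glycine carrier gene SLC6A9 at 6.55 ± 0.204 and SLC1A4, an exchanger of alanine, serine, cysteine and threonine, at 1.80 ± 0.0775 CPM per kilobase in NG. Neighbours in this order overlapped in NG for SLC38A2 and SLC3A2 alone. In LGCAR, SLC7A5 stood first at 86.7 ± 3.44 CPM per kilobase, above SLC1A5 at 78.1 ± 1.95, and SLC3A2 at 44.3 ± 0.522 overlapped with SLC38A1 at 43.7 ± 0.451 (SD, n = 3 each). SLC7A5 and SLC1A5 overlapped in LG and in CAR, and SLC38A1 and SLC7A1 overlapped in CAR.

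**Figure D1:**
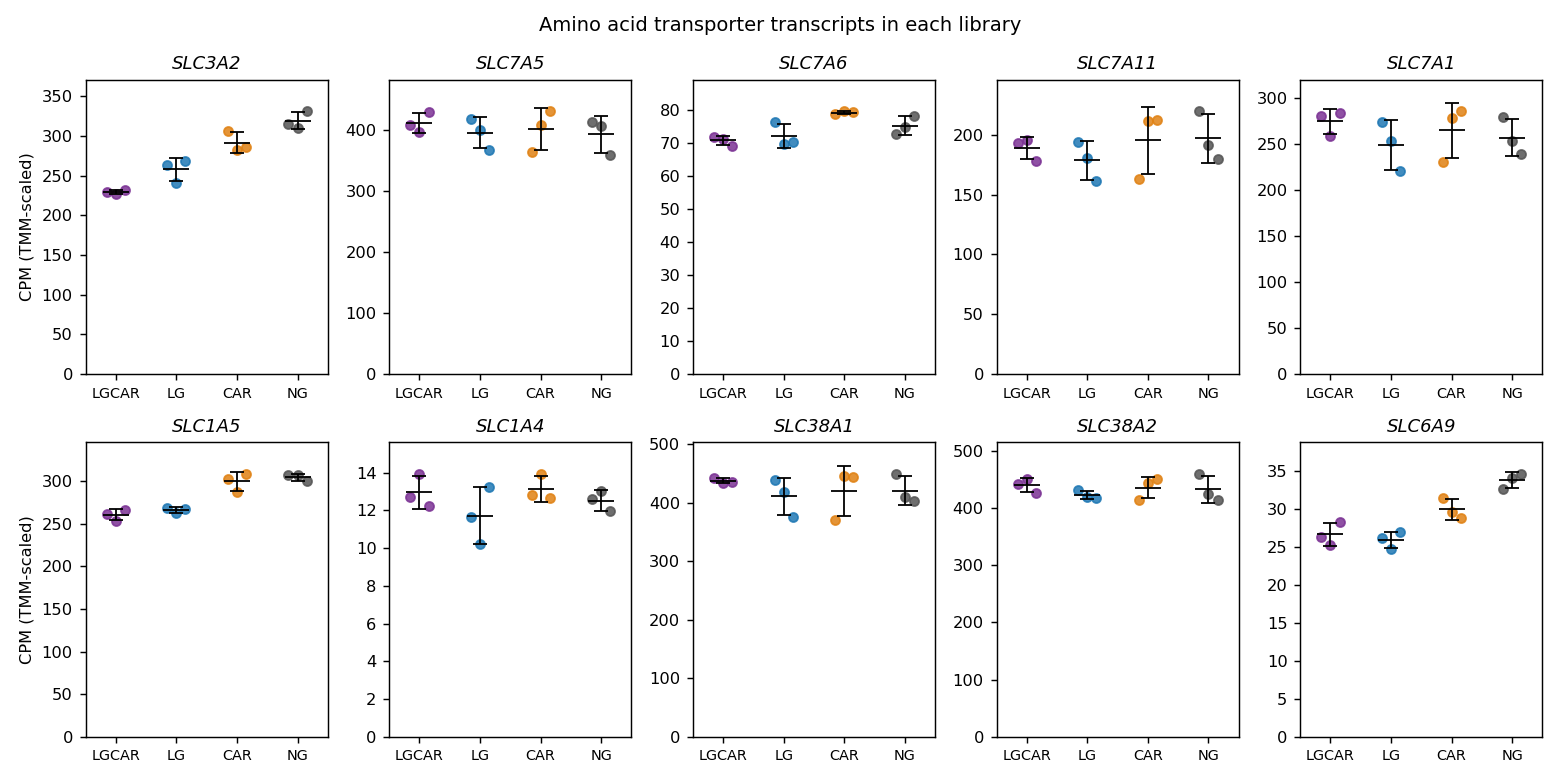
Level of each transporter transcript in CPM with TMM scaling, on a linear axis from 0, in the 3 libraries of LGCAR, LG, CAR and NG. Points are libraries and the bars give the mean and SD; SLC3A2, SLC1A5 and SLC6A9 were lower in every LGCAR and LG library than in any NG library, while the libraries of the groups overlapped for SLC7A5, SLC7A11, SLC7A1, SLC1A4, SLC38A1 and SLC38A2.

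Counted together, 3 of the 10 members fell and 0 rose in LGCAR against NG, where 4.12% of all 15104 tested genes fell, 4.63% rose and 8.75% were called in either direction (edgeR, quasi-likelihood, adjusted p under 0.05 by Benjamini-Hochberg). The same 3 genes, SLC3A2, SLC1A5 and SLC6A9, fell in LG against NG, where 0.728% of all genes fell and 1.73% were called in either direction. Both comparisons, and that of CAR with NG, share the NG libraries, so their results are not independent. In LGCAR against CAR 2 members fell, where 0.675% of all genes fell and 1.65% were called in either direction. In CAR against NG 0 members and 0% of all genes were called by edgeR, with 2 members and 684 genes at an unadjusted p under 0.05, while DESeq2 called 2 genes and limma-voom 0. In LGCAR against LG 0 members and 0.00662% of all genes were called by edgeR, with 1 member and 1801 genes at an unadjusted p under 0.05, while DESeq2 called 18 genes and limma-voom 1. In the test of whether the cariporide effect differed with glucose (the interaction) 0 members and 0.00662% of all genes were called, with 1 member and 473 genes at an unadjusted p under 0.05, while DESeq2 called 5 genes and limma-voom 1; neither tool called a member in any of these 3 tests.

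Whether the libraries of a pair of groups overlapped was counted as well. In LGCAR against NG 4 members lay wholly lower (17.5% of all genes) and 0 wholly higher (20.7%), the fourth being SLC7A6. In LG against NG 3 members lay wholly lower (9.51% of all genes) and 0 wholly higher (9.86%). In CAR against NG 2 members lay wholly lower (4.67% of all genes), SLC3A2 and SLC6A9, and 1 wholly higher (4.44%), SLC7A6. In LGCAR against LG 1 member lay wholly lower (10.5% of all genes), SLC3A2, and in LGCAR against CAR 4 did (11.9%), the called 2 with SLC7A6 and SLC6A9. The median log2 fold change of the members was -0.02 in LGCAR against NG and -0.08 in LG against NG, beside 0.0089 and 0.0065 over all tested genes.

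The heavy chain gene SLC3A2 (chromosome 11, 62856109 to 62888860, GRCh38.p14) was the member with the largest difference between LGCAR and NG. It was at 230.0, 226.6 and 232 CPM in LGCAR 1 to 3, 264, 241 and 269 CPM in LG 1 to 3, 307, 282 and 286 CPM in CAR 1 to 3, and 316, 310.4 and 331 CPM in NG 1 to 3. The 4 groups did not overlap, and they stood in the order LGCAR, LG, CAR and NG from low to high. SLC3A2 fell to 229 ± 2.70 CPM in LGCAR, against 319 ± 10.8 CPM in NG (SD, n = 3 each), with a log2 fold change of -0.48 (standard error 0.0519, edgeR adjusted p = 1.82e-04), which is 1.39-fold lower. It fell to 258 ± 14.9 CPM in LG, against the same NG libraries (log2 fold change -0.31, SE 0.0517, edgeR adjusted p = 0.00545). It fell in LGCAR against CAR (292 ± 13.2 CPM) as well, by 0.35 on the log2 scale (standard error 0.0519, edgeR adjusted p = 0.00354). With the ribosomal RNA share added as a covariate that last comparison no longer passed (log2 fold change -0.29, edgeR adjusted p = 0.0883); every LGCAR library, at 9.32% or more, had a higher share than every CAR library, at 8.53% or less. As these are bulk samples, fewer cells with the transcript and less of it per cell cannot be told apart.

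Cariporide was followed by small differences of SLC3A2 that did not pass the test. At 10 mM glucose its log2 fold change in CAR against NG was -0.13 with a 95% confidence interval of -0.24 to -0.02 (unadjusted p = 0.0225, edgeR adjusted p = 0.894). At 5 mM glucose its log2 fold change in LGCAR against LG was -0.17 with an interval of -0.28 to -0.06 (unadjusted p = 0.00490, edgeR adjusted p = 0.346), and -0.22 without LG 2. The difference between both cariporide effects was -0.04 on the log2 scale, with an interval of -0.19 to 0.12 (interaction, edgeR adjusted p = 0.9999). Its sign turned with the ribosomal RNA share as a covariate (0.04).

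The light chains that pair with 4F2hc did not pass the test in any comparison. SLC7A5 (chromosome 16, 87830023 to 87869507) was at 408, 397 and 429 CPM in LGCAR, 417, 400.2 and 367 CPM in LG, 363, 408 and 430.1 CPM in CAR, and 413, 406 and 358 CPM in NG. All 4 groups overlapped, with the lowest values in NG 3, CAR 1 and LG 3. Its log2 fold change was 0.07 in LGCAR against NG with an interval of -0.08 to 0.22 (edgeR adjusted p = 0.545), and 0.01 in LG against NG with an interval of -0.14 to 0.16 (edgeR adjusted p = 0.970). A decrease as large as that of SLC3A2 lies outside both intervals, though a p that misses the threshold does not show equal levels. The pseudogene SLC7A5P2, a near-copy at 3.20 to 6.86 CPM, can share reads with SLC7A5, and 5.71% of the exon length of SLC7A5 is overlapped by a gene on the opposite strand.

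SLC7A11 (chromosome 4, 138164097 to 138242349), whose product brings in cystine for glutathione, varied more between libraries of a group than between group means. It was at 193, 195 and 178 CPM in LGCAR, 194, 181 and 161 CPM in LG, 163, 212 and 212 CPM in CAR, and 219.7, 191 and 180.1 CPM in NG. Within CAR the highest library was 1.299-fold above the lowest, whereas the highest group mean was 1.10-fold above the lowest. The widest range within a group also exceeded that of the group means for SLC7A5, SLC7A1, SLC1A4, SLC38A1 and SLC38A2. Means of 3 libraries vary less than single libraries. The log2 fold change in LGCAR against NG was -0.06 with an interval of -0.29 to 0.17 (edgeR adjusted p = 0.748), and in LG against NG -0.14 with an interval of -0.37 to 0.09 (edgeR adjusted p = 0.5999).

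SLC7A6 (chromosome 16, 68264526 to 68301819) differed little. It averaged 70.7 ± 1.46 CPM in LGCAR, 71.99 ± 3.62 CPM in LG, 79.1 ± 0.469 CPM in CAR and 75.2 ± 2.78 CPM in NG (SD, n = 3 each). Its largest difference was in LGCAR against CAR, where the log2 fold change was -0.16 with an interval of -0.27 to -0.05 (unadjusted p = 0.00585, edgeR adjusted p = 0.118). All 3 libraries of LGCAR (69.1 to 71.9 CPM) lay below those of CAR (78.6 to 79.5 CPM). Genes on the opposite strand, SLC7A6OS among them, overlap 55.6% of its exon length, and since the sources used here do not say whether the counting used strand, its reads cannot be told apart from theirs.

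Relative to its main light chain transcript, the heavy chain transcript was lower in LGCAR and LG than in NG. This ratio, taken within each library, does not depend on how libraries are scaled. Its size, but not the order of libraries, depends on the exon lengths used. SLC3A2 over SLC7A5, both in CPM per kilobase, was 0.516, 0.523 and 0.495 in LGCAR, 0.581, 0.552 and 0.671 in LG, 0.774, 0.633 and 0.609 in CAR, and 0.6998, 0.701 and 0.848 in NG. Every LGCAR and LG library lay below every NG library, while CAR overlapped with both LG and NG. The highest ratios of NG, CAR and LG were in NG 3, CAR 1 and LG 3, which had the lowest SLC7A5 level and ribosomal RNA share of their groups. Within groups SLC3A2 and SLC7A5 ran in opposite directions (correlation of deviations -0.60), which widens the spread of the ratio. The part of the ribosomal RNA share in the ratio was not tested. Over the sum of the 3 light chains SLC7A5, SLC7A6 and SLC7A11 the ratio averaged 0.383 ± 0.00344 in LGCAR, 0.4496 ± 0.0462 in LG, 0.493 ± 0.0673 in CAR and 0.548 ± 0.0565 in NG (SD, n = 3 each).

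**Figure D2:**
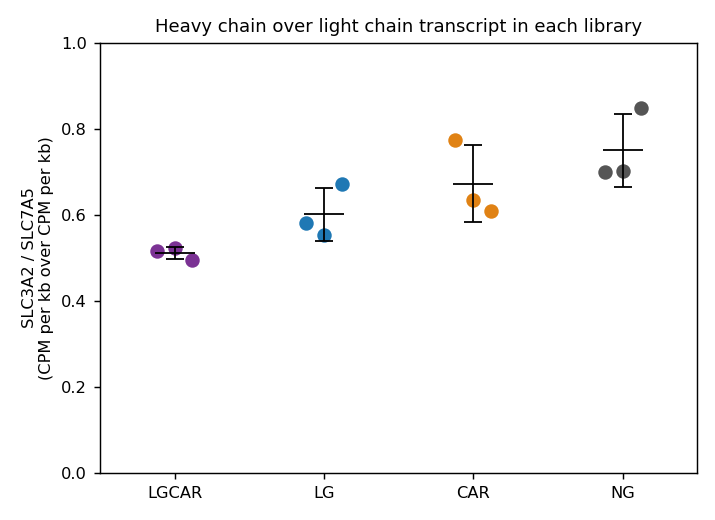
Ratio of the SLC3A2 transcript to the SLC7A5 transcript, both in CPM per kilobase of exon, on an axis from 0, for the 3 libraries of LGCAR, LG, CAR and NG. Points are libraries and bars the mean and SD; the LGCAR libraries lie at 0.495 to 0.523, below the 0.6998 to 0.848 of NG.

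SLC7A1 (chromosome 13, 29509414 to 29595688), a uniporter of cationic amino acids that needs no heavy chain, did not pass the test in any comparison. It averaged 275 ± 13.6 CPM in LGCAR, 249.6 ± 27.1 CPM in LG, 265 ± 29.6 CPM in CAR and 258 ± 20.4 CPM in NG (SD, n = 3 each). Its log2 fold change was 0.09 in LGCAR against NG with an interval of -0.10 to 0.29 (edgeR adjusted p = 0.5199), and 0.14 in LGCAR against LG with an interval of -0.06 to 0.33 (edgeR adjusted p = 0.502). The groups overlapped in both comparisons.

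Among the sodium-dependent carriers of glutamine, SLC1A5 alone was called. SLC1A5 (chromosome 19, 46774883 to 46788594), the exchanger ASCT2, was at 261, 253 and 266 CPM in LGCAR, 268, 262 and 267 CPM in LG, 303, 287 and 308 CPM in CAR, and 307, 307 and 299 CPM in NG. All 6 libraries at 5 mM glucose (253 to 268 CPM) lay below all 6 libraries at 10 mM (287 to 308 CPM), with or without cariporide. SLC1A5 fell by 0.23 on the log2 scale in LGCAR against NG (SE 0.0441, edgeR adjusted p = 0.00941). It fell by 0.20 in LG against NG (SE 0.04400, edgeR adjusted p = 0.0330) and by 0.20 in LGCAR against CAR (SE 0.0441, edgeR adjusted p = 0.0303). Its call in LG against NG was lost when NG 1, NG 2, NG 3, LG 1 or LG 2 was left out (adjusted p in edgeR 0.0748 to 0.156) and with library totals as the only scaling (0.0533), and that in LGCAR against CAR without CAR 3, LGCAR 1, LGCAR 2 or LGCAR 3 (0.0801 to 0.149) and with the ribosomal RNA share as a covariate (0.165), while its log2 fold changes stayed between -0.25 and -0.18 in the settings run. On the opposite strand 23.8% of its exon length is overlapped, so part of its counts may come from there.

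Cariporide had no detectable effect on SLC1A5 here, with log2 fold changes of -0.02 in CAR against NG (interval -0.12 to 0.07) and -0.03 in LGCAR against LG (interval -0.12 to 0.06). SLC1A4 (chromosome 2, 64988479 to 65023865), the relative ASCT1, was at 12.2 to 13.9 CPM in LGCAR, 10.2 to 13.2 CPM in LG, 12.6 to 13.9 CPM in CAR and 11.9 to 13.0078 CPM in NG, from 230 to 327 counts a library. The groups overlapped, and its log2 fold change in LGCAR against NG was 0.05 with an interval of -0.15 to 0.25 (edgeR adjusted p = 0.766).

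The net importers of the SLC38 family were among the highest members in CPM, which is not scaled to exon length, and were not called. SLC38A1 (chromosome 12, 46183063 to 46269043) averaged 438 ± 4.52 CPM in LGCAR, 411 ± 31.8 CPM in LG, 421 ± 42.96 CPM in CAR and 421 ± 25.0151 CPM in NG, and SLC38A2 (chromosome 12, 46358188 to 46372773), a carrier that adapts to amino acid supply, averaged 439 ± 12.3 CPM in LGCAR, 423 ± 7.299 CPM in LG, 436 ± 19.1 CPM in CAR and 432 ± 23.8 CPM in NG (SD, n = 3 each). In LGCAR against NG the log2 fold changes were 0.06 for SLC38A1 (interval -0.09 to 0.21, edgeR adjusted p = 0.627) and 0.02 for SLC38A2 (interval -0.08 to 0.13, edgeR adjusted p = 0.8002). SLC38A2 had the narrowest range of all members, with the highest of the 12 libraries 1.11-fold above the lowest.

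SLC6A9 (chromosome 1, 43996483 to 44031462), the sodium- and chloride-coupled glycine carrier GlyT1, fell in LG and in LGCAR against NG, and its difference in LGCAR against CAR did not pass the test. It was at 26.4, 25.3 and 28.4 CPM in LGCAR, 26.1, 24.8 and 26.9 CPM in LG, 31.5, 29.7 and 28.8 CPM in CAR, and 32.6, 34.1 and 34.6 CPM in NG. The libraries of LGCAR and LG overlapped, those of CAR lay above both and below those of NG. SLC6A9 fell by 0.34 on the log2 scale in LGCAR against NG (SE 0.0625, edgeR adjusted p = 0.00661) and by 0.38 in LG against NG (SE 0.0617, edgeR adjusted p = 0.00454). In CAR against NG its log2 fold change was -0.17 (interval -0.30 to -0.04, unadjusted p = 0.0116, edgeR adjusted p = 0.894), and in LGCAR against CAR it was -0.17 as well (interval -0.30 to -0.04, edgeR adjusted p = 0.173). In LGCAR against LG it was 0.04 (interval -0.09 to 0.17). The difference between both cariporide effects was 0.21, with an interval of 0.03 to 0.40, and it did not pass the test over all genes (unadjusted p = 0.0272, edgeR adjusted p = 0.9999). A gene on the opposite strand, CCDC24 (2.86 to 4.44 CPM), overlaps 7.83% of its exon length.

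**Figure D3:**
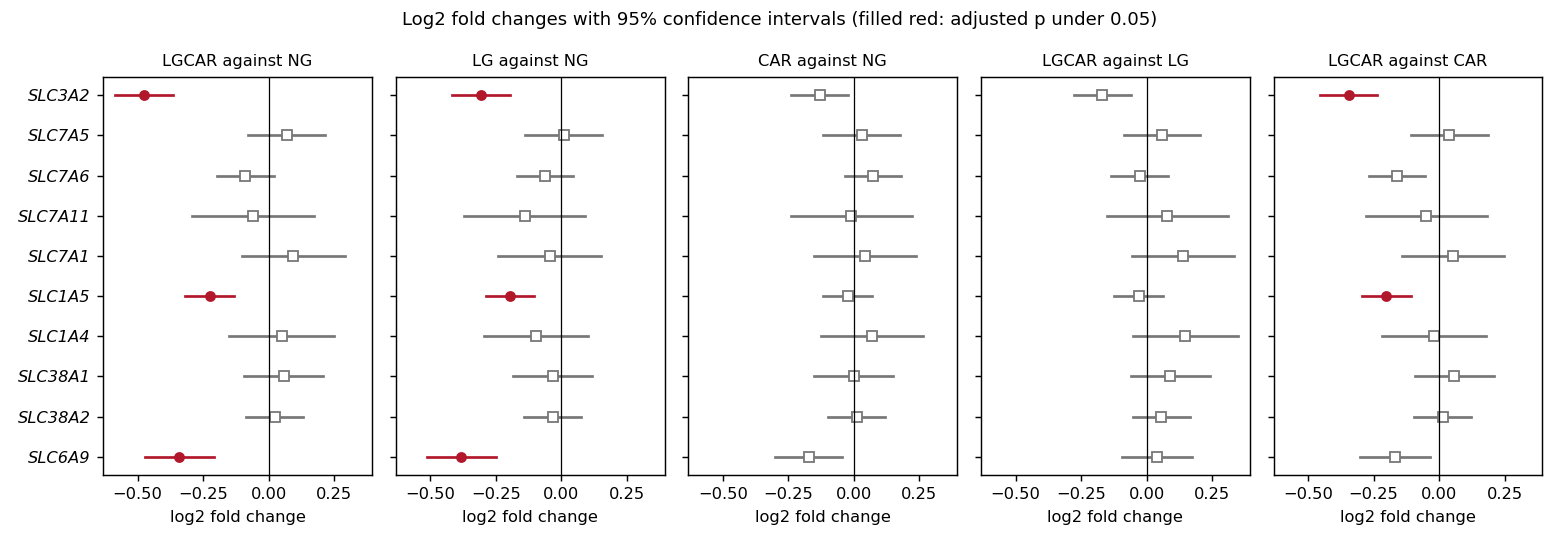
Log2 fold change of each transporter with its 95% confidence interval in 5 comparisons (one panel each, linear axis), filled red where the edgeR adjusted p was under 0.05. SLC3A2, SLC1A5 and SLC6A9 are the called members in LGCAR against NG and in LG against NG, and SLC3A2 and SLC1A5 in LGCAR against CAR.

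Of the 7 members that were not called, 5 moved together between libraries of the same group. Taken as deviations from the group mean on the log2 scale, SLC7A5, SLC7A11, SLC7A1, SLC38A1 and SLC38A2, a set chosen after its values were seen, had a mean deviation of -0.17 in CAR 1, -0.11 in LG 3 and -0.10 in NG 3, with all 5 genes below their group mean in each. In NG 1, CAR 3, LG 1 and CAR 2 the mean deviation was 0.11, 0.10, 0.09 and 0.07, with all 5 genes above. In LGCAR the mean deviations were -0.01 to 0.02, while single genes of the set ran from -0.08 to 0.06 there and did not share a direction. Correlations of these deviations over the 12 libraries were 0.64 to 0.96 for the 10 pairs of these genes, as a description of libraries that also share their depth and ribosomal RNA content. SLC7A6 and SLC1A4, also not called, did not follow them, with correlations to these 5 genes of -0.09 to 0.14 for SLC7A6 and -0.30 to 0.24 for SLC1A4. The share of ribosomal RNA was 7.10% in CAR 1, 7.91% in LG 3 and 7.83% in NG 3, the lowest of each group, and its part in the pattern was not tested. SLC3A2 ran against these genes within groups, with correlations of -0.61 to -0.44, and with SLC6A9 at 0.73.

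**Figure D4:**
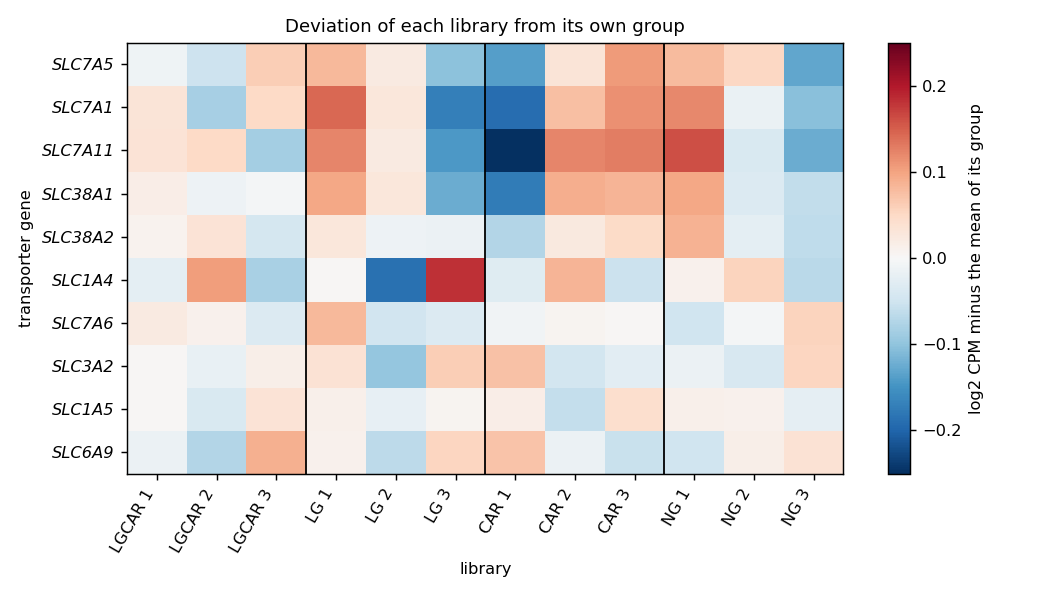
Log2 CPM of each transporter in each of the 12 libraries minus the mean of that library's group, from blue (below) to red (above), with lines between LGCAR, LG, CAR and NG. The upper 5 rows share low values in LG 3, CAR 1 and NG 3 and high values in LG 1, CAR 2, CAR 3 and NG 1, while no LGCAR library has all 5 rows on one side.

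The genes with the pattern most like that of single members were looked for among all tested genes. By Pearson correlation of log2 CPM over the 12 libraries, the 5 nearest genes to SLC3A2 outside the members were WARS1, the cytosolic tryptophanyl-tRNA synthetase (0.98), HSPA5, the endoplasmic reticulum chaperone BiP (0.97), HM13, a signal peptide peptidase (0.97), PLIN2, a coat protein of lipid droplets (0.97), and PDIA4, a disulfide isomerase (0.97). Their log2 fold changes in LGCAR against NG were -0.34, -0.36, -0.21, -0.50 and -0.18 in that order, given as a description with no test, since genes chosen for likeness to SLC3A2 over these libraries share its direction by that choice. The genes nearest to SLC7A11 were PHF20L1, PRKAA1 and KLF3 (0.95, 0.95 and 0.93), and those nearest to SLC38A2 were PRKAA1, a catalytic subunit of AMPK, ZNF281 and KLF3 (0.97, 0.92 and 0.89). These libraries share their groups, so the correlations are a description.

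Most of a list of amino acid response genes, ATF4 and its targets, fell in LGCAR. Of 31 listed symbols, older names included, 28 were tested, of which 18 fell and none rose in LGCAR against NG, where 4.12% of all genes fell, with a median log2 fold change of -0.26 beside 0.0089 over all tested genes. The transcription factor gene ATF4 fell to 209 ± 2.16 CPM in LGCAR, against 275 ± 14.4 CPM in NG (-0.40 on the log2 scale, standard error 0.0679, edgeR adjusted p = 0.00514). ASNS, asparagine synthetase, fell by 0.35 on the log2 scale and PSAT1, an enzyme of serine synthesis, by 0.39. The value of ASNS is uncertain, since 44.6% of its exon length lies within a further gene of that strand. In LG against NG, where 0.728% of all genes fell, 4 of the 28 did, namely PSAT1 (by 0.31), VLDLR, a lipoprotein receptor (by 0.30), GPT2, a mitochondrial alanine transaminase (by 0.29), and WARS1 (by 0.21), with a median of -0.12. DDIT3, a stress-induced transcription factor, rose by 0.29; GPT2, WARS1 and DDIT3 are named here after their values in LG were seen. In LGCAR against CAR, where 0.675% of all genes fell, 6 of the 28 did and none rose (median -0.20), and in CAR against NG none was called (median -0.07). In LGCAR against NG 18 genes fell in all libraries together, but 9 when NG 2 was left out, 4 for NG 3, 7 for LGCAR 1, 8 for LGCAR 2, 6 for LGCAR 3 and 6 for NG 1 with LGCAR 3. In LG the 4 were 2 without NG 1 or NG 2, 1 without LG 2 and 0 without NG 3 or LG 1, and in all libraries 1 with the replicate block and 0 with the compared groups alone. DDIT3 was not called when any 1 NG library, LG 1 or LG 3 was left out, nor by limma-voom, with the replicate block, with the compared groups alone or with ribosomal RNA genes left out. In LGCAR against CAR the 6 were 1 without CAR 3 or any 1 LGCAR library and 0 with the ribosomal RNA share as a covariate or without NG 1 and LGCAR 3, and 11 with library totals as the only scaling or with no filter.

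Other amino acid transporters gave few calls. Of 33 listed genes 22 were tested, and in LGCAR against NG 1 rose and 1 fell, with a median of -0.0053 on the log2 scale. Over all genes 4.63% rose and 4.12% fell, so these counts are near the background and are no result about the list. SLC38A4, a further sodium-coupled neutral carrier, rose to 7.98 ± 0.773 CPM in LGCAR, against 5.85 ± 0.449 CPM in NG (0.45 on the log2 scale, standard error 0.115, edgeR adjusted p = 0.0285). SLC38A9, the lysosomal arginine sensor of mTORC1, fell to 14.7 ± 0.533 CPM in LGCAR, against 17.3 ± 0.352 CPM in NG (-0.23 on the log2 scale, standard error 0.0698, edgeR adjusted p = 0.0497). Both calls ended when any 1 of the 6 libraries was left out (edgeR adjusted p = 0.0622 to 0.106 for SLC38A4 and 0.0506 to 0.167 for SLC38A9). With all libraries SLC38A9 was not called by DESeq2 (adjusted p = 0.0853) or limma-voom (0.0575), nor in edgeR with no filter (0.0683), the replicate block (0.0738) or the ribosomal RNA share as a covariate (0.0712), and SLC38A4 was not called with the replicate block (0.0507). None of the 22 was called in LG against NG, CAR against NG or LGCAR against LG by edgeR, and SLC38A4 was the only one called in LGCAR against CAR (0.50, edgeR adjusted p = 0.0361), a call that ended without CAR 2, CAR 3 or any 1 LGCAR library (0.0846 to 0.167) and with library totals (0.0504), the replicate block (0.0715), the ribosomal RNA share as a covariate (0.143) or the compared groups alone (0.0709).

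Genes that sense or use amino acids moved in few cases. In LGCAR against NG 4.63% of all genes rose and 4.12% fell, and in LG against NG 1% rose and 0.728% fell. Whether the counts of these lists differ from those shares was not tested. Of 30 tested genes of amino acid sensing by mTORC1 3 rose in LGCAR against NG, FLCN (by 0.21 on the log2 scale), FNIP1 (by 0.45) and FNIP2 (by 0.32), which encode folliculin and its partners, and FLCN rose by 0.23 in LG against NG (edgeR adjusted p = 0.0456). The 3 calls in LGCAR were all lost without NG 2, NG 3, LGCAR 1 or LGCAR 2, as were those of FNIP2 and FLCN without LGCAR 3, and the call of FLCN in LG when any 1 NG library, LG 1 or LG 2 was left out. With all libraries FLCN was not called with the replicate block in LGCAR (0.0611) or in LG (0.0882), nor in LG with RLE factors (0.0527) or the compared groups alone (0.113). Of 15 tested genes of glutamine, cystine and branched-chain amino acid use, GCLC, an enzyme of glutathione synthesis, was the 1 that fell in LGCAR against NG (log2 fold change -0.24, edgeR adjusted p = 0.0141). The call of GCLC ended when NG 3, LGCAR 1 or LGCAR 3 was left out (edgeR adjusted p = 0.0536 to 0.0734). Of 14 tested upstream regulators PPP1R15A, a phosphatase subunit that acts on eIF2, fell by 0.26 and EIF2S1, which encodes its alpha subunit, fell by 0.15 in LGCAR against NG, and MYC rose by 0.26 in LG against NG. Those calls were lost without NG 3, LGCAR 1 or LGCAR 3 for both (PPP1R15A edgeR adjusted p = 0.0792 to 0.0956, EIF2S1 0.139 to 0.196), for EIF2S1 also without NG 2 or LGCAR 2, and for MYC when any 1 NG library, LG 1 or LG 3 was left out (0.0876 to 0.226). With all libraries EIF2S1 was not called with no filter (0.0546), the replicate block (0.0760) or the ribosomal RNA share as a covariate (0.0580), nor MYC with the replicate block (0.0695), ribosomal RNA genes left out (0.0504) or the compared groups alone (0.131).

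**Figure D5:**
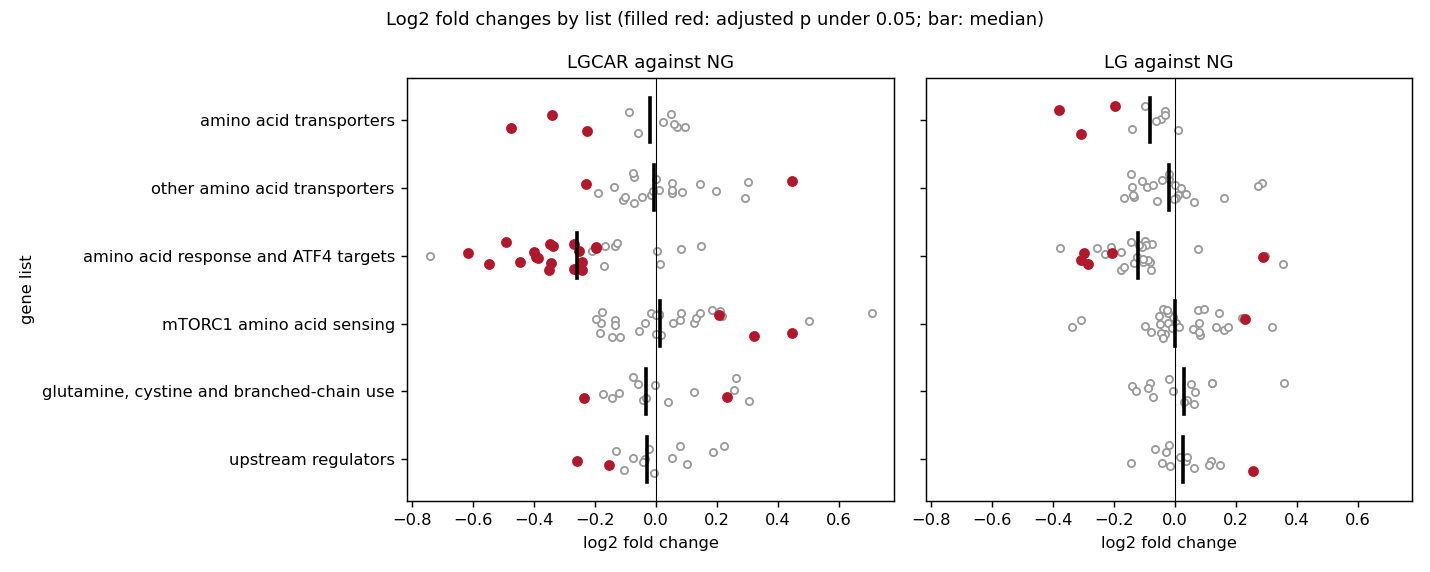
Log2 fold changes of the 10 transporters and of 5 gene lists in LGCAR against NG (left) and LG against NG (right), each point 1 tested gene, spread vertically at random, filled red where the edgeR adjusted p was under 0.05, with the median as a bar. The list of the amino acid response lies to the left in LGCAR, with a median of -0.26, while the median of the 10 transporters is -0.02.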

How the data were processed

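Per the labels' protocols, the RNA behind the 12 MDA-MB-231 libraries was isolated in Trizol, and a strand-preserving NEBNext Ultra II Directional kit was used. The authors deposited 1 table of raw counts per gene symbol for each library; fastp, STAR, Salmon and GATK with GRCh38 are named in the submitters' processing notes, but which of them counted, in which version and whether by strand is not stated there.

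CPM, log2 fold changes and tests were computed here. Genes passing filterByExpr by group (15104 of 40929) were fitted in R 4.3.3 by edgeR 4.0.16 (quasi-likelihood, robust), with TMM scaling and 1 mean per group, over all 12 libraries. P-values were adjusted over all tested genes by Benjamini-Hochberg and called under 0.05. Standard errors are the log2 fold change over the root of F. Exon lengths, over the merged exons of all transcripts of a gene, and overlaps came from GENCODE 29. The test was also run on simulated data, and its outcome there is not used here. Figures used matplotlib 3.10.9.

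Members and lists were chosen with earlier results of these data known. All 10 members are named; of each list at most the 4 called genes with the smallest p in LGCAR against NG, and 2 in other comparisons, are named, and the genes nearest to SLC3A2 (5), SLC7A11 and SLC38A2 (3 each). Alternatives were RLE factors, library totals, other filters, DESeq2 1.42.0, limma-voom (limma 3.58.1), the compared groups alone, a replicate block, each library left out, and 3 settings on ribosomal RNA. Libraries of a group differed beyond counting error (chi-square per degree of freedom 2.79 to 23.7). Some results are not reported here.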

Additional observations from a re-analysis of the deposited data

How the results depend on the processing

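SLC3A2 and SLC6A9 kept their calls in LGCAR against NG and in LG against NG under all 17 settings run for each, with log2 fold changes of -0.50 to -0.45 and -0.42 to -0.31 in LGCAR and of -0.34 to -0.26 and -0.42 to -0.35 in LG. SLC1A5 kept its call in LGCAR against NG under 16 of 17, the exception being NG 1 and LGCAR 3 left out together (edgeR adjusted p = 0.0505). In LGCAR against CAR the 2 called members were 1 with the replicate block, 1 without NG 1 and LGCAR 3, 1 with the groups compared alone and 0 with the ribosomal RNA share as a covariate, and 1 to 2 with a library left out; the cause was not tested. In LG against NG the 3 called members were 2 with library totals as the only scaling, 2 with the replicate block, 2 without NG 1 and LGCAR 3 and 2 with the groups compared alone, and 2 to 3 with a library left out, SLC1A5 being the gene lost. Counts in the other 4 comparisons of the members were as in the report, apart from LGCAR against NG without NG 1 and LGCAR 3 (2). No called member changed sign. The median of all genes moved by less than 0.1 on the log2 scale under the other scalings.

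Libraries with the same replicate number were weakly alike: correlations of same-numbered deviations ran from -0.11 to 0.14, and 7 of 18 were the best for their number. In LG with NG 3 of 3 were the best, at 0.08, 0.04 and 0.12, so a pairing of these groups is not settled. With the block the count of all called genes was 147 in LG against NG and 682 in LGCAR against NG, beside 261 and 1322 without it, and 135 beside 249 in LGCAR against CAR. The fit to the compared groups alone could not be made for the interaction. Depth limits SLC1A4, at 230 to 327 counts a library, more than the other members.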
